A study of Mus musculus with 2 samples.

Results

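Cxcl9-positive macrophages were followed here in immune cells from subcutaneous tumours of 2 kinds of mice, UEIS LSL and UEIS KI. They were 567 of the 19261 cell barcodes in the data, 452 of 9527 in the UEIS LSL library and 115 of 9734 in the UEIS KI library. A barcode counted as such a macrophage if it held at least 500 unique molecular identifiers (UMIs, each standing for 1 captured RNA molecule) and at least 200 genes, with at most 10% of its UMIs from mitochondrial genes. It also had to hold at least 10 UMIs of *C1qa*, *C1qb* and *C1qc* together, none of *Cd3d*, *Cd3e* or *Cd3g*, at least 2 of *Cxcl9* and at most 1 of *Lyve1*. *C1q* marks tissue macrophages, the *Cd3* genes mark T cells, and *Lyve1* marks a resident macrophage type. The barcodes were thus chosen by their *Cxcl9*, *C1q*, *Cd3* and *Lyve1* counts, which are given below as descriptions. Both libraries were made with a 10x Genomics droplet assay that reads the 3′ end of each polyadenylated RNA.

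The tumours grew from MC38 cells, a mouse colon adenocarcinoma line, placed in C57BL/6 mice, and were digested with DNase I and collagenase II. Both library names carry the marker CD45, and the cells are labelled as tumour-infiltrating immune cells. No sort is described in the sources used here. By the series title, the study asks how the micropeptide UEIS bears on interferon signalling downstream of cGAS and STING, and on immunity to tumours. The labels do not expand UEIS, LSL or KI, and give neither the allele's promoter or driver, nor the age and sex of the mice, nor how many were pooled. The gene that encodes UEIS is not named, so the genotype was not checked in the counts. There was 1 library per group, so no test between UEIS KI and UEIS LSL was possible. Intervals below are exact 95% intervals that cover counting error only, with no spread between animals. "Higher" and "lower" therefore describe these libraries.

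CXCL9, CXCL10 and CXCL11 are secreted chemokines that attract activated T cells and natural killer cells through the receptor CXCR3. Interferon-γ, made mainly by those same lymphocytes, acts through its receptor and JAK kinases to switch on *Cxcl9*, while *Cxcl10* also answers type I interferon. In tumours, macrophages and dendritic cells are known sources of CXCL9, and such macrophages are often contrasted with those that make osteopontin, the product of *Spp1*.

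The promoters of 4 genes are shown: *Cxcl9*, which chose the cells, its neighbour and fellow CXCR3 ligand *Cxcl10*, and *Gbp2* and *Serpina3g*, which ranked highest of the genes named below as higher in *Cxcl9*-positive than in *Cxcl9*-zero macrophages. On GRCm38, *Cxcl9* lies on chromosome 5 from 92321347 to 92328079 on the minus strand, with *Cxcl10* (92346638 to 92348889) and *Cxcl11* (92359544 to 92365485) next to it on the same strand. *Gbp2* lies on chromosome 3 from 142620602 to 142638008 and *Serpina3g* on chromosome 12 from 104236245 to 104241939, both on the plus strand. Each line gives the 250 bases before the RefSeq transcription start (GRCm38.p6), 5′ to 3′ on the gene's strand. Capitals mark a match to the GAS motif of interferon-γ responses, TTCNNNGAA, or to the IRF- and ISGF3-type ISRE motif, GAAA, any 2 bases, then GAAA, both searched on both strands.
Cxcl9, chr5:92328080-92328329, minus strand: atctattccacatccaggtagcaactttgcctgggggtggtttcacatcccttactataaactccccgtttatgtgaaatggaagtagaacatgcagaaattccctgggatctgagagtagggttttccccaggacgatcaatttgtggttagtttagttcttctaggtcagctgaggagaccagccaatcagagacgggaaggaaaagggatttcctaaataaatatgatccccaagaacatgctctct
Cxcl10, chr5:92348890-92349139, minus strand: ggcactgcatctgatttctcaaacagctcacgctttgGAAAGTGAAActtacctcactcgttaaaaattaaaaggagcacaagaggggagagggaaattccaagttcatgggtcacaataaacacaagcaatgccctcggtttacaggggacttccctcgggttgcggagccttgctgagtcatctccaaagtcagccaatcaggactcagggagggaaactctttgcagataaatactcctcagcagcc
Gbp2, chr3:142620413-142620662, plus strand: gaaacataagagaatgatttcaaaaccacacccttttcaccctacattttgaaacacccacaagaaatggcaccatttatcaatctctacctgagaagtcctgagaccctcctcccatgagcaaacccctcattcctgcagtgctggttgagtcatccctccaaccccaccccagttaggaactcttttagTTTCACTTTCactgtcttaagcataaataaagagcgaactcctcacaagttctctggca
Serpina3g, chr12:104235897-104236146, plus strand: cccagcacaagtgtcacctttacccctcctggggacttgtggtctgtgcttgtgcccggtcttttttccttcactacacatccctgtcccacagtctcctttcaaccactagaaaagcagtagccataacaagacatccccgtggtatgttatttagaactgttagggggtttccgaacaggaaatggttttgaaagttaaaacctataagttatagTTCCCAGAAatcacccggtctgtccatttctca

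The ISRE letters began 213 bases before the start in *Cxcl10* and 59 bases before it in *Gbp2*, and the GAS letters began 33 bases before the start in *Serpina3g*. These letters were not in the *Cxcl9* window. In these 4 sequences no base belonged to both motifs. Over windows from 250 bases before to 50 bases after the start, 3.44% of 32851 RefSeq windows held the ISRE letters, 8.30% held the GAS letters and 11.3% held either. Of the 15 genes named below as higher in *Cxcl9*-positive macrophages, 12 had a window. The ISRE letters were in 7 of these (58.3%), among them *Gbp3*, *Slamf8*, *Socs1*, *Fcgr4* and *Calhm6*, and the GAS letters in 1 (8.33%). Of the 15 genes named as lower, 12 had a window, and 3 (25%) held the ISRE letters and 2 (16.7%) the GAS letters. A match describes letters only, and no binding was measured.

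The label of macrophage was set beside 18 core macrophage genes, of which all 18 were detected in each group. All 8 fibroblast markers were detected in the UEIS LSL macrophages too, so detection in such large sums does not test the label. The 18 core genes summed to 20187 CPM (a gene's counts scaled to a common total for each sum of barcodes) in *Cxcl9*-positive and 20304 CPM in *Cxcl9*-zero barcodes of UEIS LSL. In UEIS KI these sums were 16643 and 17499.9 CPM. *Csf1r*, the receptor for the macrophage growth factor CSF1, stood at 631 and 609 CPM in UEIS LSL and at 535 and 531 CPM in UEIS KI. *Adgre1*, which encodes F4/80, was at 206 and 205 CPM in UEIS LSL and at 118 and 202 CPM in UEIS KI. T cell markers outside the rule summed to 46.8 CPM in the UEIS LSL and 41.9 CPM in the UEIS KI macrophages, and 7 of the 10, including *Trac*, *Trbc1*, *Trbc2* and *Cd8a*, were at 0 in UEIS KI. Natural killer cell markers summed to 25.7 and 16.0 CPM, against 14.6 and 9.99 CPM in the *Cxcl9*-zero barcodes. In the UEIS KI macrophages *Ncr1*, *Gzma*, *Gzmb*, *Prf1* and *Nkg7* were at 0. Markers of type 2 classical dendritic cells summed to 505 CPM in the UEIS LSL and 184 CPM in the UEIS KI macrophages, against 383 and 92.5 CPM in the *Cxcl9*-zero barcodes. Those of type 1 classical dendritic cells summed to 332 and 268 CPM, against 192 and 157 CPM, with *Xcr1* and *Clec9a* at 0 in the UEIS KI macrophages. Mature dendritic cell markers summed to 108 and 69.2 CPM, against 77.9 and 49.9 CPM. Fibroblast markers summed to 603 CPM in the UEIS LSL and 28.0 CPM in the UEIS KI macrophages, against 573 and 269 CPM in the *Cxcl9*-zero barcodes. *Dcn*, *Lum* and *Pdgfra* were at 0 in the UEIS KI macrophages. These RNAs touch several comparisons below, and their part in them was not tested except where a value without them is given.

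The libraries held 92764697 UMIs (UEIS LSL) and 99404988 UMIs (UEIS KI), with medians of 8117 and 8759.5 per barcode. *Cxcl9*-positive macrophages had a median of 11085.5 and 11021 UMIs, and the *Cxcl9*-zero barcodes that passed every other limit had 9436.5 and 10802. The libraries shared 34 barcode sequences, 2 of them among the UEIS LSL macrophages and 0 among those of UEIS KI. A doublet score marked 52 of the 452 (11.5%) and 8 of the 115 (6.96%). RNA of other cell classes, meaning any UMI of *Cd79a*, *Ncr1*, *Xcr1*, *Ccr7*, *S100a8*, *Col1a1*, *Col3a1* or *Krt18*, was held by 150 (33.2%) and 25 (21.7%).

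Fewer of the C1q macrophages held *Cxcl9* in UEIS KI. The share was 8.50% in UEIS LSL (452 of 5319, interval 7.76 to 9.28) and 2.29% in UEIS KI (115 of 5017, 1.90 to 2.75), a log2 ratio of −1.89 (−2.20 to −1.59), or 3.71-fold lower. The rule reads *Cxcl9* itself, so this share is a description. With each barcode thinned to 2000 UMIs, the share with at least 1 *Cxcl9* UMI was 7.21% (375 of 5199) against 1.88% (92 of 4893), and without thinning it was 12.5% (663) against 3.51% (176). T cell barcodes below the C1q limit were taken as a guide to free RNA, though the source of their *Cxcl9* UMIs was not tested. They were shallower than the *Cxcl9*-positive macrophages, which had medians of 11085.5 and 11021 UMIs. A *Cxcl9* UMI was held by 3 of 154 in UEIS LSL (1.95%, interval 0.404 to 5.59, median 3085 UMIs) and 4 of 151 in UEIS KI (2.65%, 0.726 to 6.64, median 2167 UMIs). At 2 UMIs or more these were 2 (1.30%, interval 0.158 to 4.61) and 1 (0.662%, 0.0168 to 3.63). The macrophage share of 8.50% lies above the UEIS LSL interval, while that of 2.29% lies inside the wide UEIS KI one, with the macrophages deeper in both. Thinned to 2000 UMIs, the macrophage share with at least 1 *Cxcl9* UMI in UEIS LSL, 7.21%, lies above the unthinned T cell interval of 0.404 to 5.59. That of UEIS KI, 1.88%, lies inside 0.726 to 6.64. In the more numerous barcodes with 0 to 9 C1q UMIs and no *Cd3* UMI, the shares with 2 or more *Cxcl9* UMIs were 2.38% for UEIS LSL (interval 1.88 to 2.97) and 0.504% for UEIS KI (0.282 to 0.829), below the macrophage share of each library. Those with *Cxcl9* had *Gbp2* at 473 and 557 CPM, against 20.8 and 13.7 CPM with none. Whether their shares measure free RNA was not tested.

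Among the barcodes that passed, *Cxcl9* RNA was spread unevenly. The median was 10 *Cxcl9* UMIs in UEIS LSL (quartiles 4 and 27) and 9 in UEIS KI (quartiles 4 and 18). The top 10% of barcodes, 46 and 12 of them, held 43.2% and 39.7% of the *Cxcl9* UMIs of their group. Just inside the limit, 53 and 14 barcodes held 2 UMIs. Just outside it, 211 (3.97% of C1q macrophages) and 61 (1.22%) held 1. At 10 UMIs or more the counts were 230 (4.32%) and 54 (1.08%). Over the summed UMIs, *Cxcl9* was at 1667 CPM in UEIS LSL and 1151 CPM in UEIS KI. Of all 11776 and 2208 *Cxcl9* UMIs in the 2 libraries, these macrophages held 81.7% and 78.4%.

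**Figure D1:**
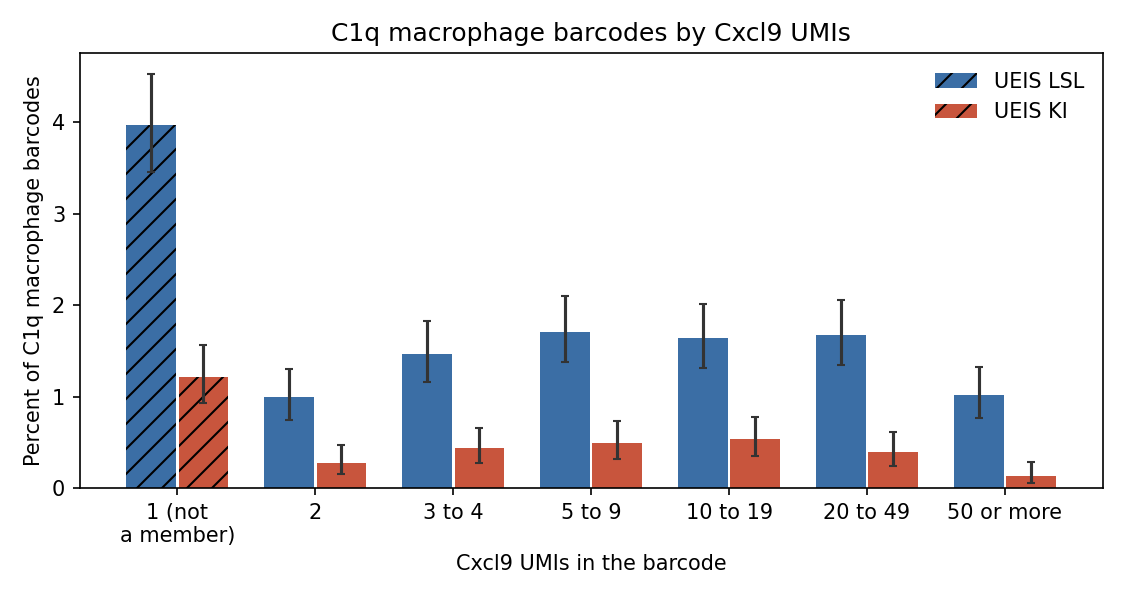
Percent of C1q macrophage barcodes (y axis) by Cxcl9 UMIs per barcode (x axis), for UEIS LSL and UEIS KI, with exact 95% binomial intervals as error bars. Hatched bars hold 1 UMI and lie outside the rule, the others are the 452 and 115 Cxcl9-positive macrophages, and UEIS KI was lower in each class drawn.

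Across all genes, *Cxcl9*-positive and *Cxcl9*-zero macrophages of each library were compared by their summed counts. A gene was measured with at least 50 UMIs over both sums and called at 1.5-fold or more. In UEIS LSL, 508 of 12328 measured genes (4.12%) were higher and 925 (7.5%) lower in *Cxcl9*-positive macrophages. In UEIS KI, 1216 of 12314 (9.87%) were higher and 1687 (13.7%) lower. The call rests on the fold alone, so low genes pass by counting error too. When the counting interval also had to exclude no change, 455 genes were lower in UEIS LSL, and 466 higher and 531 lower in UEIS KI. Of 12005 genes measured in both libraries, 244 were higher in both and 329 lower in both, while 55 and 132 were called in opposite directions.

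Of the 15 genes that led the higher side in both libraries, 6 (*Gbp2*, *Iigp1*, *Slamf8*, *Socs1*, *Fcgr4* and *Gbp3*) are on the list of interferon-γ-induced genes, and 0 on that of type I interferon. Those lists made up 27 and 51 of the 12328 genes measured in UEIS LSL, and 25 and 48 of 12314 in UEIS KI. The count depends on how the lists were drawn, since *Cxcl10*, which also answers type I interferon, was kept on that of CXCR3 ligands. Which interferon acted on these cells was not tested. *Gbp2*, a GTPase that attacks the vacuoles of intracellular microbes, was at 452 CPM in *Cxcl9*-positive and 33.5 CPM in *Cxcl9*-zero barcodes of UEIS LSL, and at 423 and 13.9 CPM in UEIS KI. That was 13.5-fold and 30.5-fold higher, and 75.2% and 74.8% of the *Cxcl9*-positive barcodes held it, against 15.9% and 8.41% of the *Cxcl9*-zero ones. At 2000 UMIs per barcode, the shares with *Gbp2* were still 46.0% against 5.22% and 41.7% against 2.40%. *Serpina3g*, an inhibitor of cathepsins, had the largest ratio of the 15, at 89.3 against 3.17 CPM (log2 4.82, interval 4.56 to 5.08) and 49.9 against 0.972 CPM (5.68, 5.17 to 6.20). *Serpina3g* belongs to a family of near-identical copies, so its counts may be split among them. *Iigp1*, an immunity-related GTPase, was at 136 against 11.2 CPM and 106 against 4.46 CPM.

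The other CXCR3 ligands went with *Cxcl9*. *Cxcl10* was at 1040.4 against 149 CPM in UEIS LSL (log2 2.80, interval 2.75 to 2.85) and at 1221 against 81.5 CPM in UEIS KI (3.90, 3.83 to 3.98). *Cxcl11* was at 42.5 against 1.29 CPM (5.04) and 45.3 against 0.704 CPM (6.01). These macrophages, with 9.84% and 2.43% of the UMIs of all C1q macrophages, held 42.8% and 27.0% of the *Cxcl10* and *Cxcl11* UMIs. They held 58.0% and 41.4% of the *Gbp2* UMIs, and 74.2% and 54.3% of those of *Serpina3g*.

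Further leading genes had varied roles. *Acod1* encodes the enzyme that makes itaconate, and was at 55.8 against 8.01 CPM in UEIS LSL and 61.9 against 5.15 CPM in UEIS KI. *Socs1*, the feedback inhibitor of JAK signalling, was at 77.5 against 21.4 CPM and 102 against 14.3 CPM. *Ccl5*, a chemokine that attracts lymphocytes, was at 220.1 against 63.6 CPM and 91.2 against 14.03 CPM. Its log2 ratios, 1.79 and 2.70, were 2.69 and 4.12 without barcodes that held RNA of other cell classes. *Fcgr4*, an activating receptor for IgG, was at 294 against 86.1 CPM and 186 against 35.7 CPM, and *C3*, the central complement protein, at 74.2 against 18.3 CPM and 51.2 against 8.60 CPM. *Ly6a* (Sca-1) was at 607 against 123 CPM and 576 against 44.3 CPM, and the interferon-induced transcript *AW112010* at 983 against 163 CPM and 1000.3 against 63.1 CPM. *Slamf8*, *Calhm6*, *Ifi47* and *Gbp3* completed the 15, with log2 ratios of 2.64, 2.91, 1.81 and 1.71 in UEIS LSL and 3.994, 3.995, 2.76 and 2.67 in UEIS KI.

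**Figure D2:**
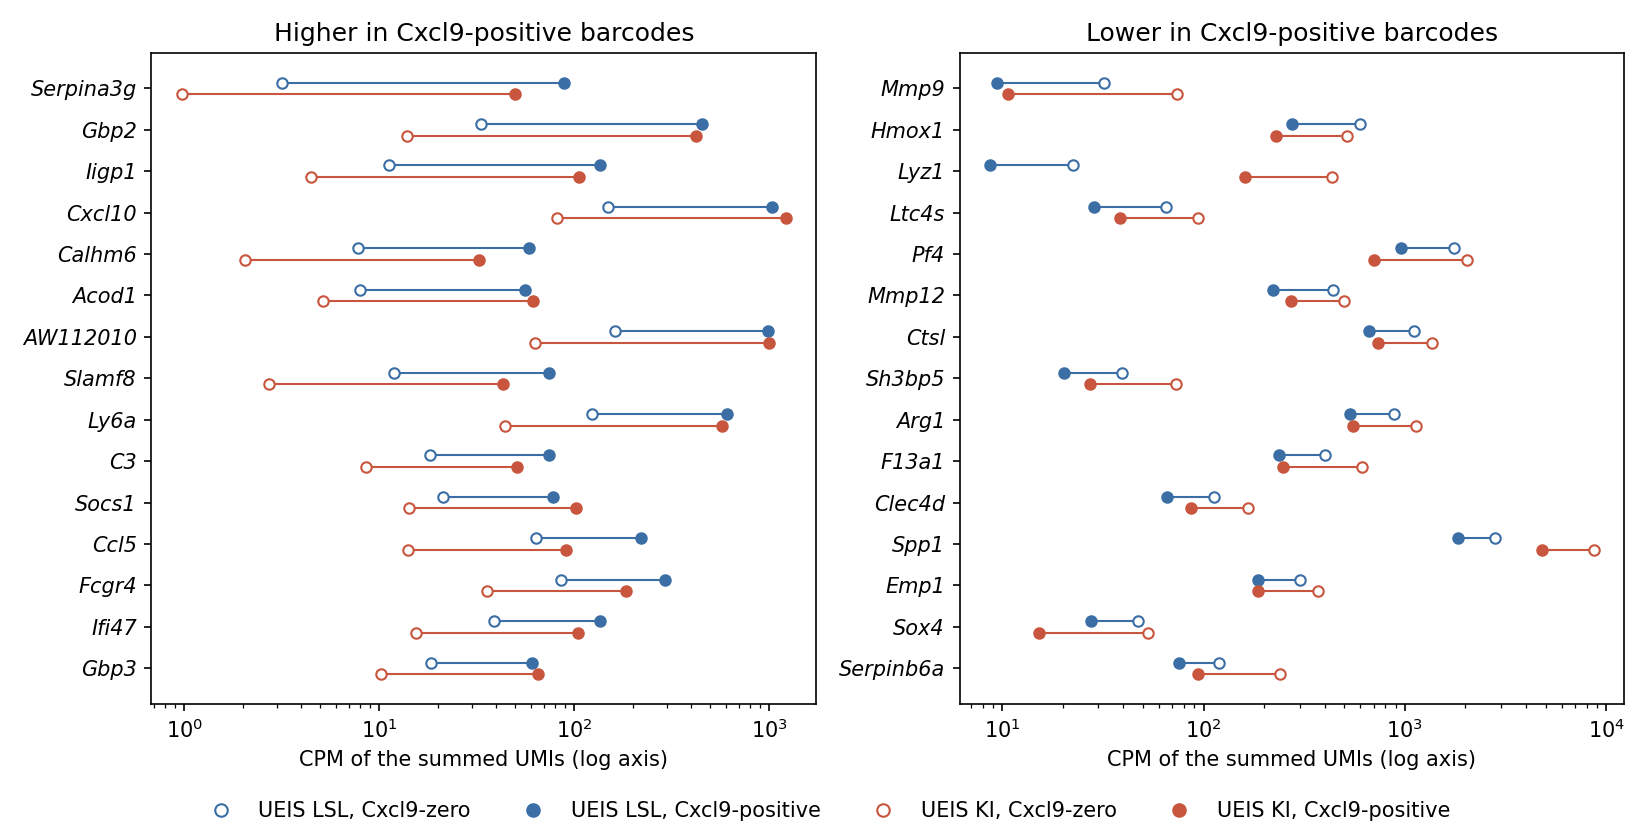
Levels (CPM of the summed UMIs, log scale) of genes named as higher or lower in Cxcl9-positive macrophages, for Cxcl9-positive and Cxcl9-zero barcodes of each library. Gbp2 and Serpina3g are farthest apart on the higher side, and Mmp9 on the lower side.

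Most interferon-γ-induced genes were on the higher side. In UEIS LSL 23 of 27 were called higher and 0 lower, with a median log2 ratio of 1.54 beside −0.07 over all measured genes. In UEIS KI 22 of 25 were higher and 0 lower, with a median of 2.27 beside −0.05. *Irf1*, a transcription factor induced by interferon-γ, was at 175 against 62.0 CPM and 146 against 26.3 CPM. *Gbp4* and *Gbp5* were higher by log2 2.97 and 3.11 in UEIS LSL and by 4.88 and 4.42 in UEIS KI. The list and its members were drawn up with earlier results of these data known, and the list shares genes with that of type I interferon.

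Genes of antigen presentation were higher as well. Of 15 MHC class II genes, 11 were higher in each library, with medians of 0.84 and 1.54, and 0 and 1 were lower. *Cd74*, the chaperone of newly made class II molecules, was at 19946 against 11112 CPM in UEIS LSL and at 13231 against 3306 CPM in UEIS KI. *H2-Ab1* was at 3017 against 1534 CPM and 1934 against 460.1 CPM, and *Ciita*, the transactivator that class II genes need, at 45.3 against 21.5 CPM and 24.6 against 5.16 CPM. *Cd74* reached 20 UMIs in 90.3% against 62.3% of barcodes in UEIS LSL and in 74.8% against 27.2% in UEIS KI. Of 22 class I and peptide-loading genes, 15 and 18 were higher and 0 lower, with medians of 0.74 and 1.04. *Tap1*, which carries peptides into the endoplasmic reticulum, was at 175 against 75.3 CPM and 143 against 38.4 CPM, and *Psmb8*, an immunoproteasome subunit, at 623 against 360.2 CPM and 548 against 257 CPM.

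Type I interferon-induced genes were less uniform. In UEIS LSL 19 of 51 measured genes were higher and 1 lower, with a median of 0.42. In UEIS KI 36 of 48 were higher and 1 lower, with a median of 0.92. *Zbp1*, a nucleic acid sensor, was higher in both (log2 1.38 and 2.21). *Isg15*, a ubiquitin-like protein, was at 155 against 92.1 CPM and 168 against 35.4 CPM. *Irf7* was at 49.4 against 45.8 CPM in UEIS LSL and 51.3 against 22.9 CPM in UEIS KI, and *Ifit3* at 17.5 against 16.6 CPM and 19.3 against 8.57 CPM. In both genes the *Cxcl9*-positive levels of the libraries lay close together and the *Cxcl9*-zero levels apart. *Ifi27* was lower by less than the fold called, at 86.9 against 112 CPM and 87.2 against 120.2 CPM.

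The receptors for interferon-γ were at similar levels with and without *Cxcl9*. *Ifngr1* was at 251 against 269 CPM in UEIS LSL and 220.3 against 220.1 CPM in UEIS KI, and *Ifngr2* at 168 against 145 CPM and 138 against 130.4 CPM. Of 23 genes of interferon receptors and their signalling, 5 and 7 were higher and 0 lower. Among checkpoint and T cell regulatory ligands, 5 of 18 were higher in each library and 0 lower. *Cd274*, which encodes PD-L1, was at 57.92 against 26.2 CPM and 57.90 against 21.0 CPM. *Pdcd1lg2*, which encodes PD-L2, was at 8.67 against 2.65 CPM and 5.32 against 0.721 CPM. *Cd40*, the receptor for T cell help, was at 66.1 against 23.2 CPM and 57.2 against 16.2 CPM.

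Soluble mediators and effector enzymes were mixed. Of 15 and 13 measured cytokine genes, 5 were higher in each library and 2 and 1 lower. *Il18bp*, the decoy for interleukin 18, was at 30.7 against 7.67 CPM and 25.3 against 3.91 CPM. *Il12b*, the shared chain of interleukins 12 and 23, gave 35 UMIs (6.07 CPM against 0.936) in UEIS LSL and 0 UMIs in UEIS KI. *Il15* was at 12.83 against 12.99 CPM and 11.98 against 12.39 CPM. *Nos2*, the inducible nitric oxide synthase, was held by 2.88% against 2.02% of barcodes in UEIS LSL and 10.4% (interval 5.51 to 17.5) against 3.80% in UEIS KI. *Ido1*, which degrades tryptophan, gave 0 UMIs in UEIS LSL and 1 UMI in UEIS KI. Of the effector list, 3 and 5 of 11 genes were higher and 1 lower in each library.

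Other chemokines did not move as a block. In each library 4 of 20 were higher, while 7 were lower in UEIS LSL and 10 in UEIS KI, with medians of −0.21 and −0.60. *Cxcl16* was higher (639 against 406 CPM and 589 against 353 CPM). *Cxcl3*, a neutrophil attractant, was at 19.8 against 50.4 CPM and 4.66 against 31.3 CPM. The monocyte attractants *Ccl2* and *Ccl7* differed little in UEIS LSL (log2 −0.12 and −0.13) and were lower in UEIS KI (−0.97 and −1.46). *Ccl8* was higher in UEIS LSL (0.998) but not in UEIS KI (0.11, interval −0.10 to 0.31). Among 5 Fc receptor genes only *Fcgr4* was called, in both libraries. Of 11 and 10 complement genes 4 were higher and 1 lower, *Cfb* of the alternative pathway by log2 2.16 and 3.23.

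The 15 genes named on the lower side had varied roles, and 2 of them, *Arg1* and *F13a1*, are on the alternative activation and scavenger list. *Mmp9*, a gelatinase, was at 9.36 against 32.0 CPM in UEIS LSL and 10.6 against 73.8 CPM in UEIS KI, though it was held by 4.65% against 2.96% of barcodes in UEIS LSL, and 1 barcode held 56.2% of the UEIS KI UMIs. Its UEIS KI log2 ratio of −2.79 was −3.90 without that barcode and −1.71 after thinning. The former takes counts from the *Cxcl9*-positive sum only, so it cannot check a call on the lower side. *Hmox1*, which degrades haem, was at 276 against 597 CPM and 228 against 516 CPM. *Pf4*, a chemokine of platelets and macrophages, was at 955 against 1747 CPM and 702 against 2033 CPM, and its UEIS KI log2 ratio of −1.53 was −0.95 with *Cxcl9* taken at 1 UMI or more. *Arg1*, which breaks down arginine, was at 535 against 887 CPM and 552 against 1135 CPM. *Spp1* was at 1826 against 2814 CPM (log2 −0.62) and 4811 against 8706 CPM (−0.86), so the *Cxcl9*-positive macrophages of UEIS KI were above the *Cxcl9*-zero ones of UEIS LSL. The *Spp1* call ended with *Cxcl9* taken at 1 UMI or more (−0.53 and −0.57), and in UEIS LSL also with no *Lyve1* limit (−0.57) and with scaling to the median ratio (−0.56).

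The other named genes on that side were the elastase *Mmp12* (log2 −1.01 and −0.87), *Ctsl* (−0.75 and −0.89), *F13a1* (−0.75 and −1.30), *Ltc4s* (−1.19 and −1.29), *Sh3bp5* (−0.95 and −1.42), *Clec4d* (−0.77 and −0.94), *Emp1* (−0.68 and −0.99), *Sox4* (−0.78 and −1.79), *Serpinb6a* (−0.66 and −1.35) and *Lyz1*. *Lyz1*, which encodes a lysozyme, was at 8.67 against 22.5 CPM in UEIS LSL and 160.4 against 436 CPM in UEIS KI, a difference between libraries larger than that between the macrophages. The UEIS LSL calls ended with *Cxcl9* taken at 1 UMI or more for *Ctsl* (−0.54), *Sox4* (−0.20) and *Serpinb6a* (−0.57). The *Sox4* call also ended as a mean over barcodes (−0.52), and that of *Serpinb6a* without barcodes that held RNA of other cell classes (−0.53). The UEIS KI call for *Mmp12* ended after thinning (−0.45). Of the alternative activation and scavenger list, 8 of 23 were lower and 0 higher in UEIS LSL and 13 of 22 lower and 1 higher in UEIS KI, with medians of −0.35 and −0.97. *Retnla*, a marker of interleukin 4 exposure, was at 1.91 against 28.9 CPM and 1.997 against 41.6 CPM. *Mrc1*, the mannose receptor, was at 238 against 303 CPM and 135 against 281 CPM. Of the *Spp1* and lipid-associated list, 6 of 22 and 10 of 21 were lower and 0 higher, while *Trem2* was at 455 against 516 CPM and 526 against 596 CPM. Of 22 glycolysis and hypoxia genes 5 were lower in each library, with medians of −0.26 and −0.19. Of 14 dissociation stress genes none was called in either library, and of 29 cell cycle genes 2 were lower in UEIS LSL and 0 called in UEIS KI.

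Levels were graded along the *Cxcl9* count for some genes and stepped for others. *Gbp2* was at 33.5, 79.2, 238, 268 and 861 CPM in UEIS LSL barcodes with 0, 1, 2 to 4, 5 to 19 and 20 or more *Cxcl9* UMIs. In UEIS KI it was at 13.9, 99.3, 167, 459.9 and 682 CPM. *Cxcl10* was at 149, 296, 337, 1147 and 1566 CPM in UEIS LSL and at 81.5, 338, 492, 1362 and 1899 CPM in UEIS KI. *Socs1* was at 21.4, 27.0, 40.5, 81.8 and 107 CPM and at 14.3, 25.9, 49.02, 91.0 and 186 CPM. All 3 genes were thus higher in each successive class of both libraries. *Cd74* stood at 11112, 13869, 18463, 18262 and 23255 CPM in UEIS LSL and 3306, 6748, 12679, 12746 and 14661 CPM in UEIS KI. *Spp1* was lower in the top than in the zero class of UEIS LSL (1438 against 2814 CPM), while in UEIS KI its lowest level, 3983 CPM, was at 5 to 19 UMIs and the top class was at 6937 CPM. *Ifngr1* showed no gradient, with levels between 234 and 269 CPM in UEIS LSL, and between 174 and 251 CPM in UEIS KI. The classes held 4656, 211, 131, 178 and 143 barcodes in UEIS LSL and 4841, 61, 36, 52 and 27 in UEIS KI, and deeper barcodes reach a higher class more easily (median 9436.5 UMIs at 0 and 11296 at 1 *Cxcl9* UMI in UEIS LSL).

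**Figure D3:**
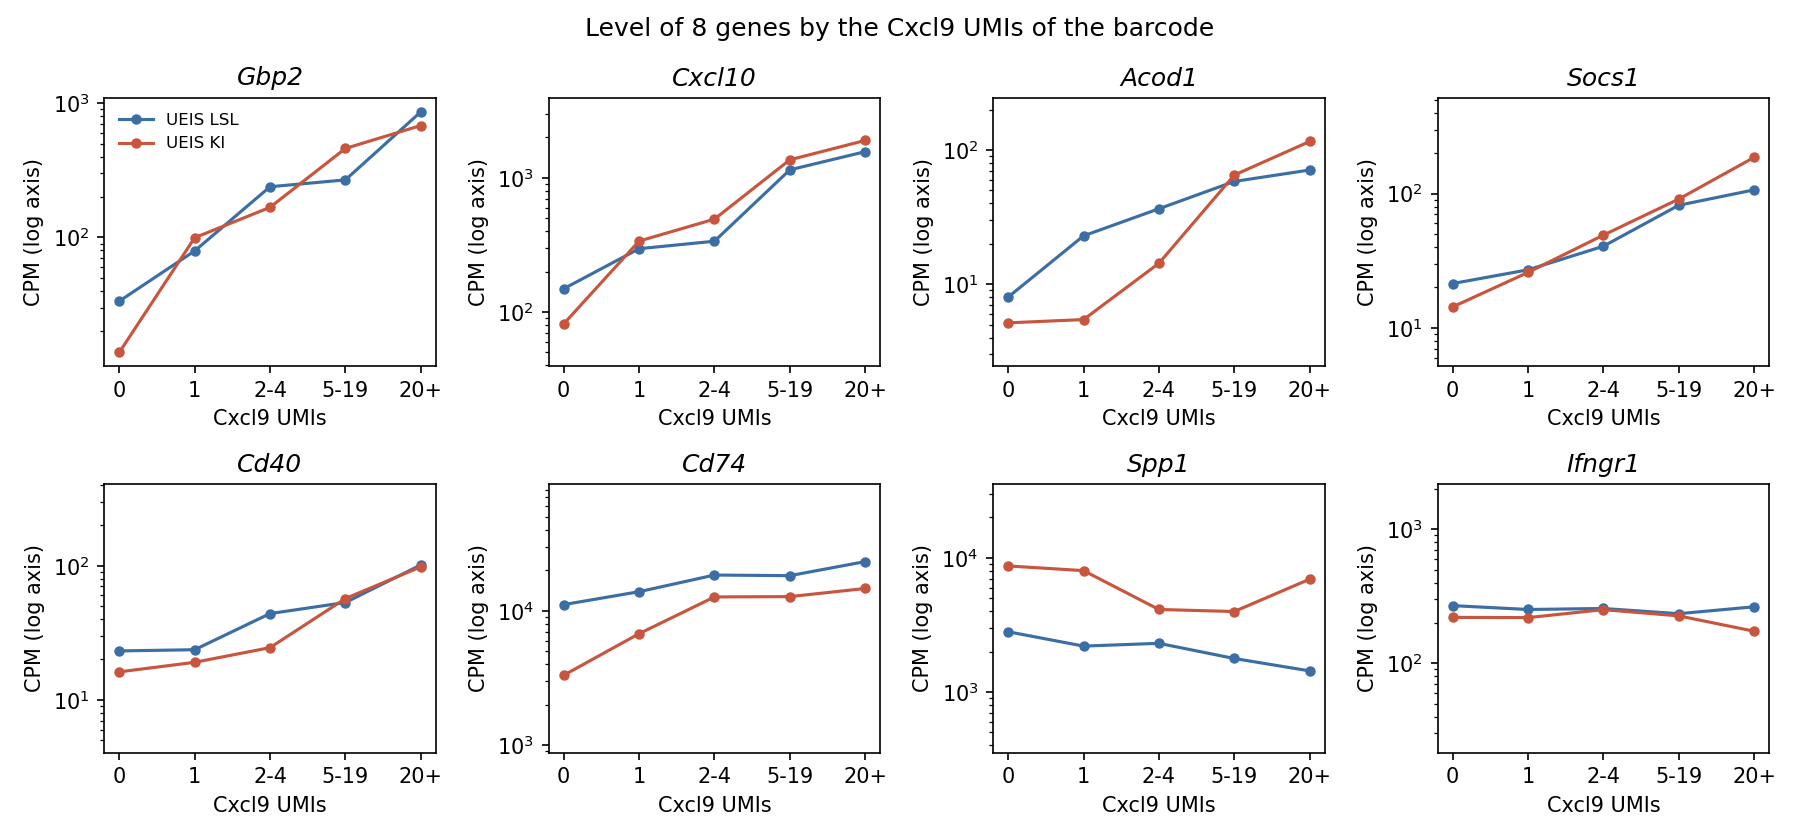
CPM of the summed UMIs (y axis, log scale) of 8 genes against the class of Cxcl9 UMIs per barcode (x axis) in UEIS LSL and UEIS KI. Gbp2, Cxcl10 and Socs1 were higher in each successive class of both libraries, and Spp1 was lower in UEIS LSL than in UEIS KI in each class.

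*Cxcl10* divided the *Cxcl9*-positive macrophages further, in a split made after the values were seen. *Cxcl10* was absent from 238 of the 452 UEIS LSL and 69 of the 115 UEIS KI barcodes, and 10 or more UMIs were in 111 and 23. Those 111 and 23 held 94.1% and 96.3% of the *Cxcl10* UMIs of the *Cxcl9*-positive macrophages. In barcodes with 0, 1 to 9 and 10 or more *Cxcl10* UMIs, *Irf1* was at 56.2, 120.2 and 448 CPM in UEIS LSL and 76.3, 74.3 and 445 CPM in UEIS KI. *Socs1* was at 25.2, 48.8 and 201 CPM and at 33.6, 31.5 and 399.9 CPM. *Acod1*, *Gbp5* and *Cd274* had the same shape, with 146, 122 and 111 CPM in the top class of UEIS LSL against 15.5, 12.4 and 31.4 CPM without *Cxcl10*. In UEIS KI these were 259.6, 207 and 165 CPM against 18.1, 15.5 and 29.7 CPM. *Gbp2* and *Cd74* were different. *Gbp2* was at 438, 395 and 529 CPM in UEIS LSL and 433, 299.5 and 589 CPM in UEIS KI, and *Cd74* at 20897, 18561 and 19352 CPM and at 14698, 10902 and 12877 CPM. *Cxcl9* itself was at 1489, 1599.8 and 2062 CPM and at 1236, 664 and 1680.2 CPM. High *Irf1*, *Socs1* and *Acod1* thus went with *Cxcl10* within these cells, while *Gbp2* and *Cd74* were high in barcodes with and without it.

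Set side by side, the UEIS KI and UEIS LSL macrophages that held *Cxcl9* differed less in interferon-induced genes than those that did not. Of 8476 genes measured in the *Cxcl9*-positive macrophages, 487 (5.75%) were higher and 524 (6.18%) lower in UEIS KI, with a median of 0.01. Of 13494 measured in *Cxcl9*-zero barcodes, 586 (4.34%) were higher and 955 (7.08%) lower, also with a median of 0.01. Interferon-γ-induced genes were lower in 5 of 23 among *Cxcl9*-positive macrophages (median −0.28) and in 18 of 25 among *Cxcl9*-zero ones (median −0.93). Type I interferon-induced genes were lower in 9 of 44 (−0.35) and in 39 of 51 (−0.96), and MHC class II genes in 6 of 14 (−0.46) and in 10 of 15 (−0.85). No gene of these 3 lists was called higher in either. Holding *Cxcl9* chose cells with high interferon-γ-induced RNA in both libraries, and with 1 library per group the difference between the 2 ratios was not tested.

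**Figure D4:**
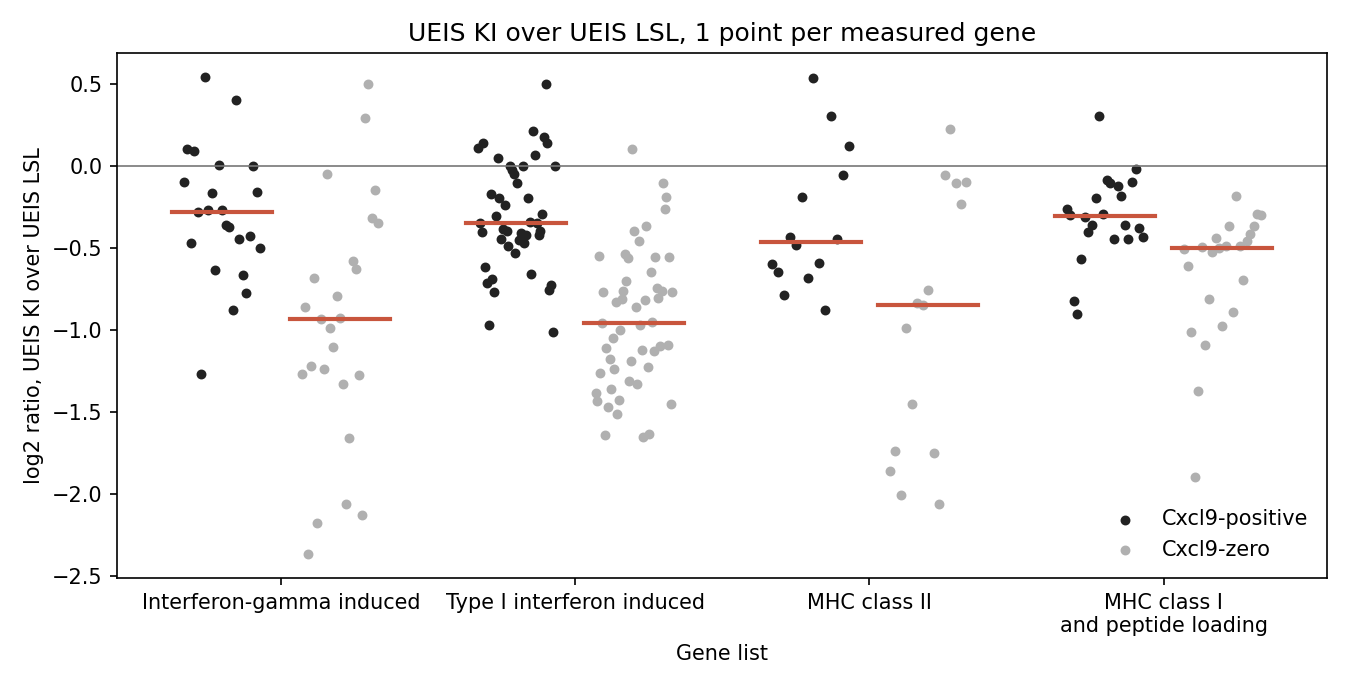
Log2 ratio of UEIS KI to UEIS LSL (y axis) of each measured gene of 4 lists (x axis), black for Cxcl9-positive and grey for Cxcl9-zero macrophages, with each list's median as a red line. The medians of the interferon-γ, type I interferon and MHC class II lists are −0.28, −0.35 and −0.46 in Cxcl9-positive and −0.93, −0.96 and −0.85 in Cxcl9-zero macrophages.

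Single genes showed the same arrangement. *Gbp2* had a log2 ratio of −0.10 (interval −0.22 to 0.03) in *Cxcl9*-positive and −1.27 (−1.39 to −1.15) in *Cxcl9*-zero macrophages. *Isg15* had 0.12 (−0.09 to 0.32) and −1.38 (−1.45 to −1.31), and *Irf1* −0.27 (−0.48 to −0.05) and −1.23 (−1.32 to −1.15). *Cxcl10* was higher in the UEIS KI macrophages that held *Cxcl9* by 0.23 (0.15 to 0.31), under the fold called, and its ratio without *Cxcl9* was −0.87 (−0.92 to −0.82). In UEIS KI 1 barcode held 18.9% of these *Cxcl10* UMIs, and without the barcode richest in it in each library the ratio was −0.0013 (−0.08 to 0.08). *Isg15* likewise was at −0.30 (−0.54 to −0.06) without such barcodes. *Ciita* (−0.88) and *Cd74* (−0.59) were also lower in UEIS KI with *Cxcl9*, beside −2.06 and −1.75 without it. *Cd274* was at the same level in both libraries with *Cxcl9*, with an interval of −0.36 to 0.34.

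For *Ccl2*, *Ccl3*, *Ccl4* and *Ccl7*, chemokines of the other chemokine list, the ratio lay farther from 0 with *Cxcl9* than without, and this difference was not tested. *Ccl7* was at 1440.0 CPM in the UEIS LSL and 496 CPM in the UEIS KI macrophages with *Cxcl9* (log2 −1.54, interval −1.65 to −1.43), beside −0.20 in *Cxcl9*-zero barcodes. *Ccl2* was at 1303 and 713 CPM (−0.87, beside −0.02), *Ccl3* at 495 and 246 CPM (−1.01, beside −0.28) and *Ccl4* at 1626 and 889 CPM (−0.87, beside −0.40). *Ccl8* was at 345 and 131 CPM (−1.39, beside −0.51), and 1 UEIS KI barcode held 34.5% of its UMIs there. Over the alternative settings its ratio ranged from −1.88 to −0.37, the latter after thinning to 2000 UMIs. With *Cxcl9* taken at 1 UMI or more, the ratio of *Ccl7* was −0.95. *Ccl5* lay nearer 0 with *Cxcl9*, at 220.1 and 91.2 CPM (−1.27, beside −2.18), with 30.7% of the UEIS KI UMIs in 1 barcode, and its ratio was −1.93 with high doublet scores left out. Of 19 other chemokines 9 were lower and 3 higher in UEIS KI.

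Among the 12 genes named as highest in UEIS KI, *Spp1* was at 1826 CPM in UEIS LSL and 4811 CPM in UEIS KI (log2 1.40, interval 1.35 to 1.44, beside 1.63 in *Cxcl9*-zero barcodes). *S100a4*, a calcium-binding protein, was at 645 and 1178 CPM (0.87, beside 0.69), and *Chil3*, a chitinase-like protein, at 51.0 and 111 CPM (1.12, beside 1.38). Cell cycle genes made up most of the others: *Ube2c*, *Ccna2*, *Cdca3*, *Cdkn2d*, *Birc5* and *Top2a* had log2 ratios of 1.47, 1.26, 1.16, 1.10, 0.98 and 0.95, and the histone gene *H2ac24* 1.10. Of 29 cell cycle genes 18 were higher, with a median of 0.81, beside 8 and 0.36 in *Cxcl9*-zero barcodes. That median was 0.22 after thinning to 2000 UMIs and 0.45 with *Cxcl9* taken at 1 UMI or more. Thinning also left *Ube2c* at 0.13, *Birc5* at 0.42 and *H2ac24* at 0.52, which ended their calls, and put *Chil3* at 2.36. *Top2a* was at 0.55 as a mean over barcodes. A *Mki67* or *Top2a* UMI was found in 29.4% of the UEIS LSL macrophages with *Cxcl9* (interval 25.3 to 33.9). In UEIS KI this was 33.9% (25.3 to 43.3), and the intervals overlap.

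The ratios of the osteoclast-type genes *Ctsk* and *Acp5* leaned strongly on 1 barcode. *Ctsk*, a collagen-degrading cathepsin, was at 23.4 CPM in UEIS LSL and 244 CPM in UEIS KI (log2 3.38, beside 1.39 in *Cxcl9*-zero barcodes). For *Acp5* the log2 ratio was 1.21, beside 0.90 in *Cxcl9*-zero barcodes. A UEIS KI barcode with 40032 UMIs, 6361 genes and 12 *Cxcl9* UMIs held 328 of the 367 *Ctsk* UMIs (89.4%) and 135 of the 267 *Acp5* UMIs (50.6%). When each gene was taken without the barcode that held most of it in each library, *Ctsk* was at 0.80 (0.21 to 1.36) and *Acp5* at 0.40 (0.10 to 0.69), which ended the call for *Acp5*.

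Of the 12 genes named as lowest in UEIS KI, 5 were fibroblast genes. *Col3a1* was at 206 CPM in UEIS LSL and 7.99 CPM in UEIS KI, *Col1a1* at 93.5 and 5.99 CPM, *Sparc* at 115 and 7.32 CPM, *Col1a2* at 104 and 1.997 CPM, and *Sfrp2* at 65.7 and 1.33 CPM. The UEIS LSL RNA came from few barcodes. Of 3476 fibroblast marker UMIs, 5 barcodes held 86.2%, and 1 barcode with 35013 UMIs held 87.9% of *Sfrp2* and 50.1% to 56.0% of the 4 others. At least 10 such UMIs were in 7 UEIS LSL and 0 UEIS KI macrophages, which held 42 such UMIs in all. Without those barcodes *Col3a1* had a log2 ratio of −1.04, *Col1a1* −0.51 and *Sparc* −0.66, and *Col1a2* and *Sfrp2* were too low to measure. In *Cxcl9*-zero barcodes the ratios of *Col3a1*, *Col1a1*, *Sparc*, *Col1a2* and *Sfrp2* were −1.16, −1.13, −1.01, −1.05 and −2.77.

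The remaining genes of that group were spread over more barcodes. *Mgl2*, a C-type lectin of macrophages and dendritic cells, was at 340.0 CPM in UEIS LSL and 84.5 CPM in UEIS KI (log2 −2.01, interval −2.28 to −1.75), and was held by 58.8% and 28.7% of barcodes. In *Cxcl9*-zero macrophages its ratio was −2.63. *Tmem176b* was at 357 and 94.5 CPM (−1.92) and its neighbour *Tmem176a* at 184 and 51.2 CPM (−1.84), beside −1.83 and −1.84 in *Cxcl9*-zero macrophages. *Plac8* was at 77.3 and 28.6 CPM (−1.43), and at −0.84 with high doublet scores left out.

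**Figure D5:**
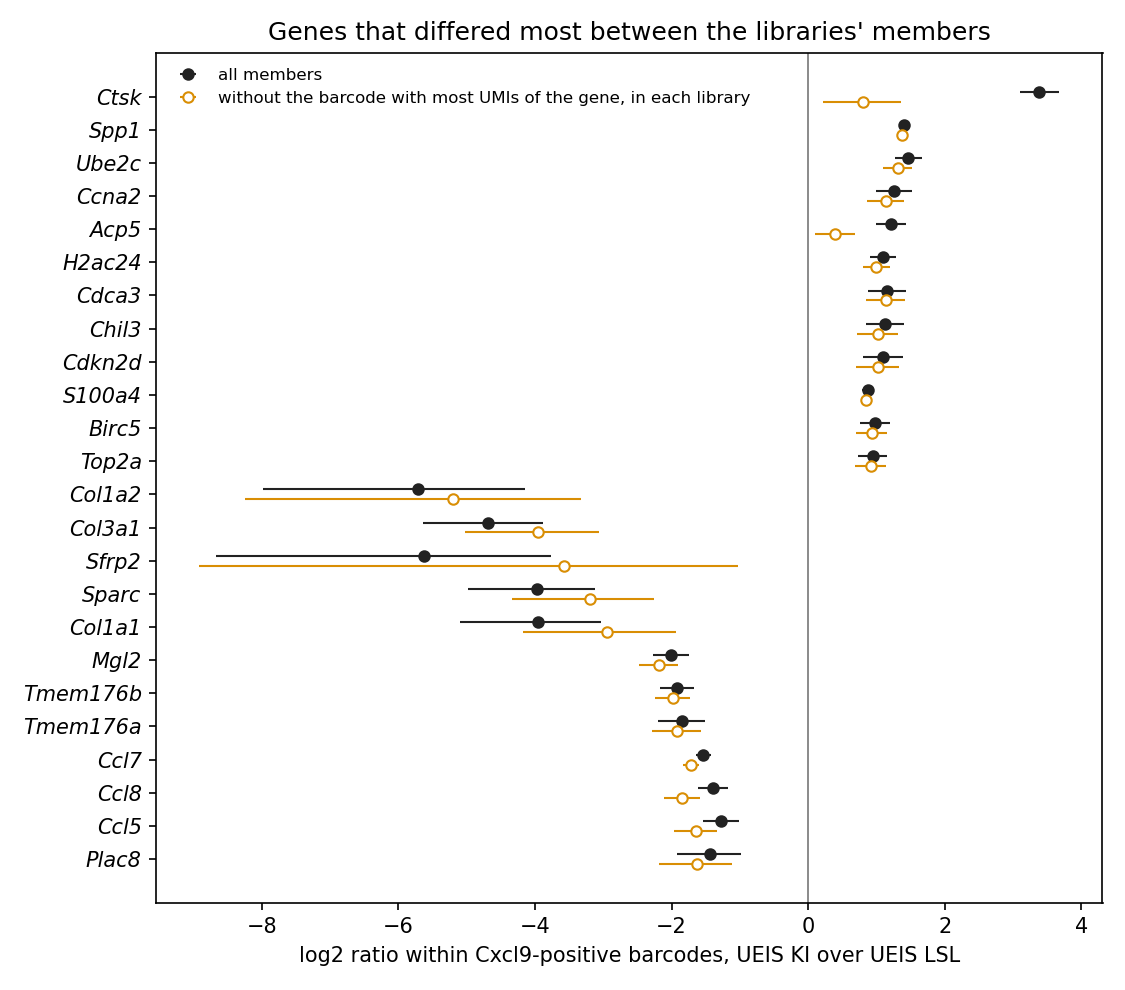
Log2 ratio of UEIS KI to UEIS LSL (x axis) of the 24 named genes (y axis) in Cxcl9-positive macrophages (members), with exact 95% counting intervals as lines. Filled points use all barcodes and open points leave out, in each library, the barcode with most UMIs of that gene, which moves Ctsk from 3.38 to 0.80 and Acp5 from 1.21 to 0.40.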

How the data were processed

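Immune cells from MC38 tumours of UEIS LSL and UEIS KI mice were profiled as 1 library per group. The values are whole UMI counts per gene and barcode as the authors deposited them. Cell Ranger 8.0.1 is named per the file headers, and Cell Ranger 2.1.1 and mm10 per the submitters' processing notes, and the sources do not settle which made the counts. How empty barcodes were removed is not given in the sources used here. Gene IDs were matched to GENCODE vM21 (52081 of 55357, 94.1%).

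Counts were summed over the barcodes of each group and scaled to CPM of the sum. Log2 ratios carry exact conditional binomial intervals and shares carry Clopper-Pearson intervals. A count of 0 allows up to 3 counts. PCR duplicates were removed by UMI, and intervals and floors cover counting error only. Members and gene lists (20 of pathways, 13 of cell class markers) were chosen with earlier results of these data known.

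Genes named for *Cxcl9*-positive over *Cxcl9*-zero barcodes were measured in both libraries, reached 50 CPM in either sum and were called the same way in both, ranked by the interval bound nearest no change (up to 15 a side). Those named for UEIS KI over UEIS LSL reached 50 CPM with an interval excluding no change (up to 12 a side). Predicted, mitochondrial, ribosomal, sex-linked and rule genes were left out. From each list, members of high level or large ratio were named, beside genes chosen for their role. Doublets were scored with Scrublet (scanpy 1.11.5), the top 0.8% per 1000 barcodes were marked, and they were kept in the values reported. Thinning drew 2000 UMIs per barcode with random seed 1. Python 3.11.15, scipy 1.17.1 and pandas 2.3.3 were used, and the calculations were tested on simulated data. Alternatives changed the barcode limits, scaling, gene filter, call rule and influence of single barcodes. A few genes are not reported here.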

Additional observations from a re-analysis of the deposited data

Results flagged for a closer look

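Results that went in opposite directions in 2 groups, or that came from barcodes outside the limits, are given here as values. *Ccl22*, a chemokine of mature dendritic cells and macrophages, had a log2 ratio of UEIS KI to UEIS LSL of 1.84 in *Cxcl9*-positive and −0.59 in *Cxcl9*-zero macrophages, and 1 barcode held 27 of the 28 UEIS KI UMIs (96.4%). *S100a8* had a log2 ratio of *Cxcl9*-positive to *Cxcl9*-zero of 0.92 in UEIS LSL and −1.76 in UEIS KI. *S100a9* had 1.70 and −1.19. Both are neutrophil genes, and 1 UEIS LSL barcode held 33.7% of *S100a8* and 41.1% of *S100a9*, while 1 UEIS KI barcode held 70% and 90%. None of these differences between groups was tested.

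*Cxcl9* also appeared outside the limits. At least 2 *Cxcl9* UMIs were in 13.6% of UEIS LSL barcodes that passed the C1q limit but held a *Cd3* UMI (40 of 294, interval 9.90 to 18.1, median 18380.5 UMIs). In UEIS KI this was 1.57% (2 of 127, interval 0.191 to 5.57). In barcodes with 2 or more *Lyve1* UMIs the share was 1.07% in UEIS LSL (4 of 374) and 0.176% in UEIS KI (2 of 1138, interval 0.0213 to 0.633). In barcodes with 0 to 9 C1q UMIs and no *Cd3* it was 2.38% in UEIS LSL (76 of 3198, interval 1.88 to 2.97) and 0.504% in UEIS KI (15 of 2979, 0.282 to 0.829).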

How the results depend on the processing

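Of 199 alternative values of the results that answer a comparison, 175 stayed within the spread or 1.5 times of the value reported and 24 moved, over 18 settings. Many of these values are numbers of genes, which cannot change sign. The share ratio and the list medians among them kept their sign. The log2 ratio of the *Cxcl9*-positive share ranged from −2.08 to −1.66. The numbers of genes called moved most with the gene filter and call rule. With at least 200 UMIs per gene, 227 genes were higher and 336 lower in UEIS LSL, 526 and 1095 in UEIS KI, and 119 higher and 121 lower in UEIS KI against UEIS LSL. With at least 10 UMIs, 1556 were higher and 1588 lower in UEIS LSL, 3989 higher in UEIS KI, and 1137 higher and 1363 lower in UEIS KI against UEIS LSL. Requiring the interval to exclude no change left 455 lower in UEIS LSL, 466 higher and 531 lower in UEIS KI, and 293 lower in UEIS KI against UEIS LSL. Thinning left 180 higher and 278 lower there. Lower genes in UEIS LSL numbered 523 with *Cxcl9* at 1 UMI or more and 1400 with C1q at 5 UMIs or more. They numbered 1447 without the *Cxcl9*-positive barcode that held most of each gene. That setting takes counts from the *Cxcl9*-positive sum only, so it adds lower genes by construction. With *Cxcl9* at 1 UMI or more, 784 genes were higher in UEIS KI, the interferon-γ median in UEIS LSL was 1.30, and the MHC class II median of UEIS KI against UEIS LSL was −0.61. That median was −0.62 with high doublet scores left out. The cause was not tested, except that a stricter filter tests fewer genes and a looser one adds genes near the counting limit. Of the named genes called as reported, 1216 alternative values gave 19 under 1.5-fold and 0 of the other sign. The call rule with intervals, the removal of single barcodes and the removal of fibroblast RNA were chosen after seeing the data. No paired analysis was possible because each group holds 1 library. For the same reason no replicate could be left out. Depth limits genes under 50 UMIs over both sums, above all in the 115 UEIS KI macrophages.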

Other observations

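Barcodes with at least 2 *Cxcl9* UMIs but fewer than 10 C1q UMIs and no *Cd3* UMI numbered 76 in UEIS LSL and 15 in UEIS KI. In their summed counts *Gbp2* was at 473 CPM in UEIS LSL and 557 CPM in UEIS KI, against 20.8 and 13.7 CPM in barcodes under the same limits with no *Cxcl9*. *Cxcl10* was at 996 and 696 CPM, against 104.5 and 75.2 CPM. *Ccr7*, a receptor of mature dendritic cells, was in 9.21% and 6.67% of the barcodes, against 4.84% and 4.61% of those with no *Cxcl9*. *Fscn1*, an actin-bundling protein of the same cells, was in 21.1% and 6.67%, against 14.3% and 9.08%. The UEIS KI shares rest on 15 barcodes. Of other dendritic cell genes, *Flt3* was in 11.8% and 13.3%, against 3.93% and 2.98%, and *Zbtb46* in 10.5% and 20%, against 4.22% and 3.56%. *Cd209a* was in 18.4% and 13.3%, against 7.33% and 4.07%. *Xcr1* and *Clec9a* were in 2.63% and 3.95% of the UEIS LSL barcodes, against 0.491% and 0.524%, and at 0 UMIs in those of UEIS KI. Most of these barcodes also held the macrophage gene *Csf1r*, at 64.5% and 86.7%, against 67.2% and 69.1%. *Adgre1* was in 13.2% and 60%, against 24.6% and 25.6%, and *Ccr2* in 57.9% and 73.3%, against 54.9% and 55.9%. The collagen gene *Col1a1* was at 6971 CPM in the UEIS LSL barcodes, against 1218 CPM with no *Cxcl9*, and at 6.33 CPM (1 UMI) in UEIS KI, against 582 CPM. These values are a description, since the barcodes were chosen by *Cxcl9*, and the part of other cells' RNA in them was not tested.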
